A study of Mus musculus with 5 samples.

Results

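Neutrophils of the aortic arch were taken from a single-cell RNA table of atherosclerotic mice by the values of 9 genes. A cell was taken if S100a8 and S100a9 each lay above 2 on the natural-log scale of the table, if at least 1 of Csf3r, Cxcr2 and Retnlg was above 0, and if C1qa, Cd3e, Cd79a and Cdh5 were at 0. This gate held 62 of the 18260 cells. The 5 libraries came from pooled mice fed a normal chow diet for 28 weeks, and live cells of the arch had been sorted with DAPI. By the design of the paper all mice were Apoe-/-, which makes them prone to atherosclerosis. By that design 2 libraries, titled Oasl1/Apoe WT, carried no further allele. The other 3, titled Oasl1/Apoe DKO, are labelled Oasl1-/-Apoe-/- here. In them Oasl1, an interferon-induced gene of the oligoadenylate synthetase family, was targeted in all cells of the body. The targeting removed the promoter and exon 2. Where the 3′ tags counted for Oasl1 lie was not looked at, so its level was not used to check the labels. In the gated cells Oasl1 had 0 and 0 UMIs (unique molecular identifiers, each 1 captured RNA molecule) in the Apoe-/- libraries against 0, 5 and 1 in the libraries labelled Oasl1-/-Apoe-/-, and its relative Oasl2 had 1 and 1 against 2, 2 and 2.

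Neutrophils are short-lived granulocytes that leave the bone marrow with most of their granule proteins already made. They sense bacterial peptides, complement and chemokines, and they release alarmins, interleukin-1 and chemokines that recruit further leukocytes. The mRNAs of the primary and secondary granules are made in the marrow and are lost as the cell matures, while those of receptors and cytokines are read in the tissue.

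By library, 16 and 11 gated cells came from Apoe-/- mice, and 11, 14 and 10 from mice labelled Oasl1-/-Apoe-/-. Both S100 genes lay above 2 in 98 cells, of which 34 had none of the 3 receptor genes while the exclusion genes were at 0, and 2 had an exclusion gene as well. The exclusion genes therefore removed no cell that had a receptor gene. The lowest value inside the gate was 2.26 for S100a8 and 2.09 for S100a9, and the 3 cells that only 1 of these thresholds kept out had that gene at 0. A value of 2 equals 6.39 UMIs in 10000 of the cell, a unit written CP10K from here on. By receptor gene, 18 cells had only Csf3r, 23 only Retnlg and 21 at least 2 genes. No barcode was shared between gated cells of different libraries, and 2 gated cells carried a barcode that also marked a cell of another library.

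Gated cells held little RNA. Their UMIs per cell ran from 509 to 5929 with a median of 954, against medians of 4008 in the reference described below and 4804 over all cells. The median was 383.5 genes per cell, and 0.488% of UMIs were mitochondrial, against 1.85% in the reference. When each cell was thinned to 500 UMIs, the median was 246 genes in neutrophils, 317 in the reference and 343 in 500 smooth muscle cells, so fewer genes were seen in neutrophils at equal depth also. Together the neutrophils gave 81083 UMIs, between 13164 and 19043 a library, so that 1 UMI was worth between 0.525 and 0.76 CP10K in a library's pool.

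Of the 62 cells, 8 stood apart and held 36.5% of the UMIs. In 6 of them at least 10 UMIs came from the markers of smooth muscle, red cells, fibroblasts or endothelium, and these are called mixed cells. Smooth muscle markers led in 4, with 224, 200, 61 and 35 UMIs, haemoglobin made up 78% of the UMIs in 1, and fibroblast and endothelial markers gave 14 and 7 UMIs in 1. The authors had removed doublets before deposit, and whether these 6 cells are doublets was not tested. The other 2 cells were rich in granule mRNA and are described below. The remaining 54 cells held between 509 and 1811 UMIs, with a median of 892. Each library had at least 1 cell apart, and pooled levels were therefore also computed without them.

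**Figure D1:**
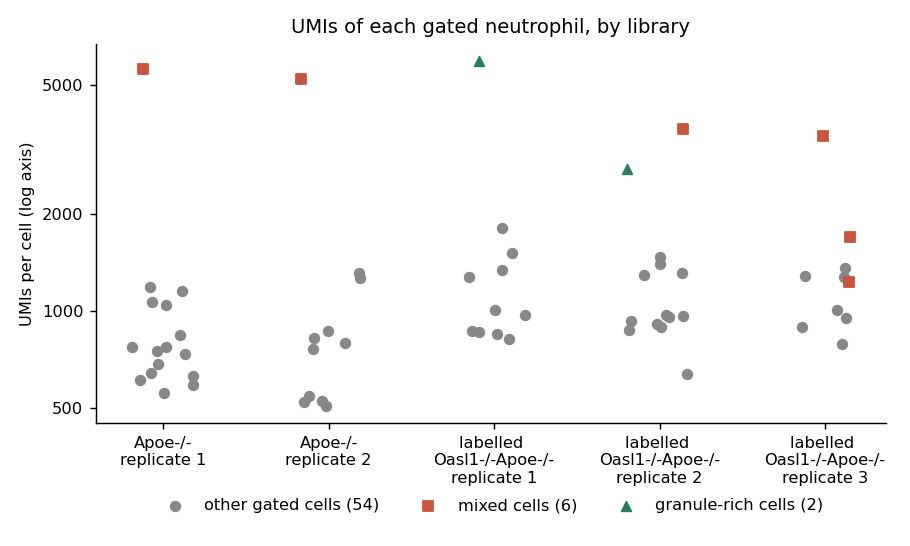
UMIs of each gated cell (log axis) by library, with mixed cells as squares and granule-rich cells as triangles. The 54 other cells lie between 509 and 1811 UMIs in all 5 libraries, and 6 of the 8 cells apart lie above them.

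The name neutrophil was checked against markers. Of 14 markers of the type 5 belonged to the gate. Of the other 9, 8 were analysed and 7 were high against the reference, where 4.93% of all measurable genes were, both terms as defined below. Among them, G0s2, an inhibitor of fat breakdown, was present in 61.3% of gated cells, Hdc, the enzyme that makes histamine, in 74.2%, Il1r2, the decoy receptor for interleukin-1, in 77.4%, and Trem1, an amplifying receptor of inflammation, in 69.4%. In smooth muscle cells, which held more UMIs a cell, the share with a UMI of any 1 of these genes was at most 0.595%. Of 9 monocyte markers 6 had UMIs, in 23 of the 62 cells and with a sum of 18.9 CP10K against 78 in the reference, while Ccr2, F13a1 and Ms4a6c were at 0. Ly6c2 and Chil3 are among these 9 and also chose the reference cells, so the sum of the reference was set in part by the rule. Macrophage markers had UMIs in 20 cells (5 of 7 markers outside the gate, with Mrc1 and Gpnmb at 0) and dendritic markers in 18 (3 of 6, with Flt3, Cd209a and Xcr1 at 0). These summed to 3.33 CP10K against 19.4 and to 4.07 against 229. Outside the gate, 3 of 3 B cell markers and both cycling markers, Mki67 and Top2a, were at 0, and 1 of 6 NK and T cell markers had a UMI. Eosinophil markers had 2 UMIs in all. The neutrophil surface gene Ly6g was not analysed here.

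The 2 reference sets were chosen by the rule as well, so differences between neutrophils and either set are described and not tested. Cells with Ly6c2 or Chil3 above 0 and S100a8 at or below 2 numbered 758, but 208 of them carried C1qa, 134 carried Cd3e and 218 lacked Tyrobp, an adaptor of myeloid cells. A second set, the myeloid-gated reference, also asked for the 4 exclusion genes at 0 and for Tyrobp, and held 330 cells, between 48 and 76 a library. It held monocytes and dendritic cells by its markers, with dendritic markers whose summed level was 119 and 123 CP10K in Apoe-/- libraries against 315, 229 and 267 under the label Oasl1-/-Apoe-/-. Its mitochondrial share was 2.05% and 2.4% against 1.74%, 1.68% and 1.75%. Both split by group, and their part in the genotype contrasts of the reference, in the interaction and in shares per reference cell was not tested. Levels below are CP10K of pooled cells, neutrophils first and the myeloid-gated reference after the word against.

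A gene was measurable if it reached 1 CP10K in neutrophils or in both references, which 1563 genes did. A gene can thus be measurable by its neutrophil level alone, so counts of high genes in the lists below are descriptions. Of these, 77 (4.93%) were high, that is at least 4-fold above both references with 0.1 CP10K added and higher in all 5 libraries. By the same measures 153 genes (9.79%) were low. Without the cells apart the counts were 95 high and 318 low, of which 72 and 142 were among the genes counted first.

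**Figure D2:**
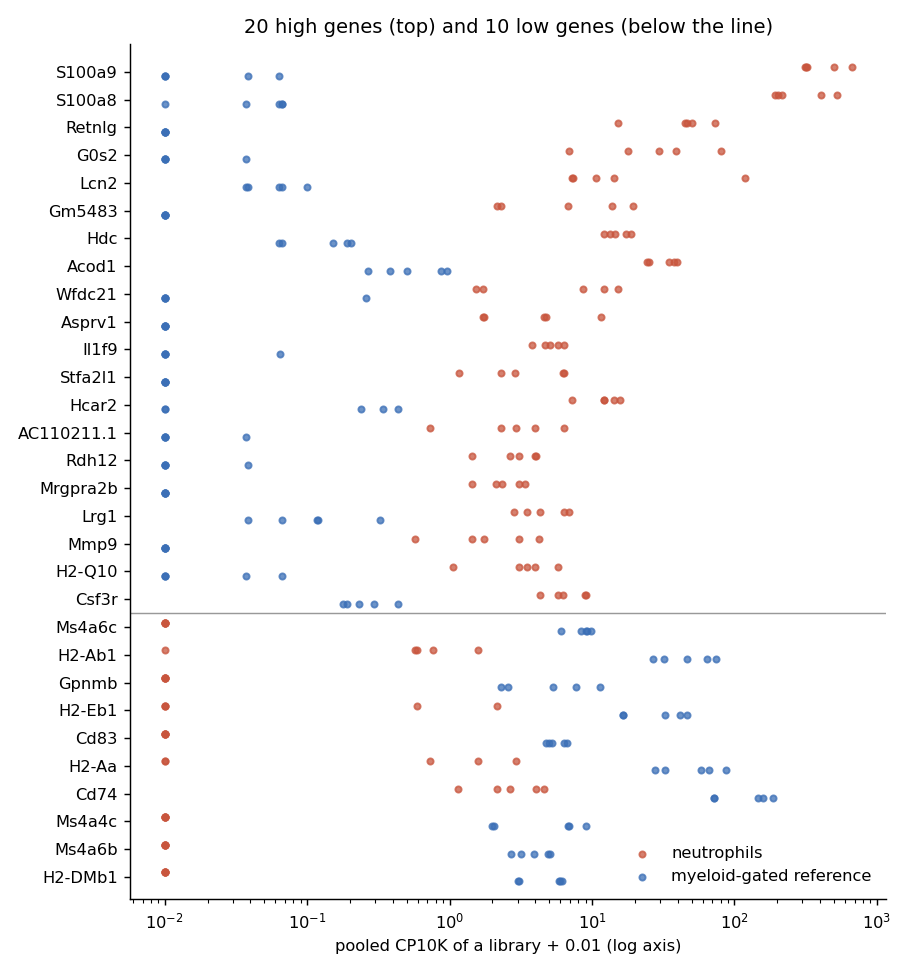
Pooled CP10K of each of the 5 libraries, with 0.01 added (log axis), in neutrophils and in the myeloid-gated reference, for the 20 genes ranked first among the high and the 10 ranked first among the low. Points at the left edge are libraries at 0, and in no gene do the libraries of the 2 cell sets overlap.

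The S100 alarmins were set high by the gate itself, so their levels are a description. S100a9 (chromosome 3, 90692632 to 90695721, GRCm38) reached 318, 311, 665, 500 and 324 CP10K in the 5 libraries, in the order in which their cells were counted above, against 0.0136 pooled in the reference. S100a8, its partner in the calprotectin complex, reached 217, 193, 522, 403 and 201 CP10K against 0.0407. Retnlg, a resistin-like secreted protein of mouse granulocytes, had 46.4, 15.2, 44.7, 72.5 and 50.2 CP10K and was at 0 in the reference. Of the S100a9 UMIs, the granule-rich cells held 787 of 1146 in replicate 1 labelled Oasl1-/-Apoe-/- and 478 of 952 in replicate 2, and of S100a8 they held 686 of 900 and 450 of 767. Averaged over cells, S100a9 was level, at 425, 462, 439, 433 and 385 CP10K, and S100a8 had 303, 307, 295, 323 and 239. As background, 0.253% of smooth muscle cells had a UMI of S100a9, 0.146% of S100a8 and 0.039% of Retnlg.

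Alarmin mRNA was not even among the cells. S100a8 per cell ran from 8.63 to 1631 CP10K with a median of 217, and S100a9 from 7.11 to 1733 with a median of 291. Motifs of 4 factors known from myeloid cells were looked for on both strands in the 250 bases before the start of genes. The stretches of G0s2, Hdc, Csf3r, Acod1, Trem1, Clec4d, Cxcr2, Il1f9, Asprv1 and Il1r2 held no match and are not printed. Those of S100a8, S100a9, Retnlg, Lcn2 and Cxcl2 are printed because they held one. Each is given from 5′ to 3′ on the gene's strand as in RefSeq on GRCm38.p6, with the matches in capitals.
S100a8, chr3:90668821-90669070, plus strand, PU.1 match: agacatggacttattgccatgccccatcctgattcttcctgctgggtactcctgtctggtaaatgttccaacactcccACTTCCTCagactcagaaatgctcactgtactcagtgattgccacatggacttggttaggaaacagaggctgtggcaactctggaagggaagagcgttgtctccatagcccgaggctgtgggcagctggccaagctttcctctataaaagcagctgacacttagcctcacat
S100a9, chr3:90695722-90695971, minus strand, C/EBP match: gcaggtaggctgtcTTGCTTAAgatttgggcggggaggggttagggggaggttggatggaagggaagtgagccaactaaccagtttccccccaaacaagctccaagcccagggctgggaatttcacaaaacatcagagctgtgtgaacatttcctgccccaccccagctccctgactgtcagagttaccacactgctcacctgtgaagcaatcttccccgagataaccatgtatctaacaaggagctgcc
Retnlg, chr16:48872358-48872607, plus strand, C/EBP match: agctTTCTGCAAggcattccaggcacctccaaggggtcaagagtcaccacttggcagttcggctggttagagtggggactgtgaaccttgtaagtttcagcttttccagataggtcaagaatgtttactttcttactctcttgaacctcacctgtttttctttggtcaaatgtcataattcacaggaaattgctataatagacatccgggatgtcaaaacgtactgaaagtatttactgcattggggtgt
Lcn2, chr2:32387740-32387989, minus strand, C/EBP match: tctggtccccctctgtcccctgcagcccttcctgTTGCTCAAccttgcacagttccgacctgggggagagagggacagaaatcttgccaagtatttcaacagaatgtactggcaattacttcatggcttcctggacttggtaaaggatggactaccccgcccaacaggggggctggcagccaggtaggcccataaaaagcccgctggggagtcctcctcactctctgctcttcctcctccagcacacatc
Cxcl2, chr5:90903649-90903898, plus strand, NF-kB match: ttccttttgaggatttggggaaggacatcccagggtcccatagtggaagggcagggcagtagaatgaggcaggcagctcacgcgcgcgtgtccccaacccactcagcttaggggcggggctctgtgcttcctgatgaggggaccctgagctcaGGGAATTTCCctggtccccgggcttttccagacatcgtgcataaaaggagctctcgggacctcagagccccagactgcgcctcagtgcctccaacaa

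The matches began 172 bases before the start in S100a8, 236 in S100a9, 246 in Retnlg, 216 in Lcn2 and 97 in Cxcl2, and none overlapped another. For 60 of the 77 high genes, 75 promoters were in the tables used. The C/EBP letters TTGCNNAA were in 12% of them and in 7.97% of the promoters of all genes of the table, PU.1 letters GAGGAAGT in 5.33% and 2.62%, the NF-kB motif in 2.67% and 1.16%, and AP-1 letters TGANTCA in 9.33% and 5.01%. In promoters of the low genes the shares were 8.97%, 4.14%, 2.76% and 11%, in the same order. These matches are descriptions of letters and were not tested.

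Granule genes fell into 2 kinds. The primary granule genes Mpo, Prtn3 and Prss57 had no UMI, and Elane and Ctsg were not analysed here. Of the secondary granule genes, Ngp had all of its 615 UMIs in 1 cell, and Camp, the cathelicidin, and Ltf, lactoferrin, had 489 and 134 UMIs in the same 2 cells. The first of these, in replicate 1 labelled Oasl1-/-Apoe-/-, held 5929 UMIs, of which granule mRNA was 23.3%, with Chil3 at 64 and Lcn2 at 187. The second, in replicate 2 of that label, held 2759 UMIs, of which granule mRNA was 4.78%, and also 109 UMIs of Retnlg. Lcn2, the iron-trapping lipocalin, was the one gene of this list present elsewhere: 19 further cells had it, and its pooled level was 33.1 CP10K with these 2 cells and 11.5 without the cells apart.

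Tertiary granule genes were lower but more widely spread. Mmp9, the gelatinase, had 0.565, 3.04, 1.74, 4.2 and 1.43 CP10K and was at 0 in the reference, and 19.4% of cells had a UMI. Arg2, the mitochondrial arginase, had 6.17 CP10K against 0.997. Mmp8, the neutrophil collagenase, had 2.1 against 0.17 and was absent from 1 library. Itgam and Adam8 differed less, at 1.73 against 0.949 and 1.85 against 1.19.

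Among alarmins, stefins and protease inhibitors, 8 of 12 genes were measurable and 5 were high, or 3 of 6 measurable genes without those of the gate. Over all measurable genes the share was 4.93%. Slpi, an inhibitor of neutrophil elastase, had 37.1 CP10K against 6.21 and was in 71% of cells. Wfdc21 had 8.14 against 0.061. Stfa2l1, a stefin of a multigene family whose reads may be shared with its copies, had 3.95 and was at 0 in the reference. Wfdc17 was not high, at 16.9 against 11.5, and S100a6 and S100a11 had 30.3 against 18.7 and 41.3 against 13.5.

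Some receptors that guide neutrophils were high. In their list 11 of 14 genes were measurable and 6 were high, or 5 of 10 measurable genes without those of the gate. Over all measurable genes 4.93% were high. Il1r2 had 23.2, 31.1, 17.4, 20 and 13.6 CP10K against 2.33 pooled in the reference, Ccr1, a chemokine receptor, had 13.1 against 2.18, C5ar1, the receptor of complement fragment C5a, had 8.51 against 1, Csf3r, the G-CSF receptor, had 6.91 against 0.244, and Ptafr, the receptor of platelet-activating factor, had 6.66 against 1.48. Fpr2, which senses formyl peptides, had 1.85 against 0.0542. Cxcr2, the receptor for Cxcl2 and a gene of the gate, had 8 UMIs in all and was present in 11.3% of cells. Csf2rb, the common subunit of GM-CSF receptors, was not high, at 1.48 against 2.62.

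Of 13 pattern and Fc receptors, 9 were measurable, 3 were high and 1 was low. Over all measurable genes 4.93% were high and 9.79% low. Clec4d, a C-type lectin for mycobacterial lipid, had 22.7 CP10K against 3.59, Trem1 12.6 against 0.78 and Trem3 3.21 against 0.373. Cd14, the endotoxin co-receptor, had 36.9 against 17.5, and Clec4e, the partner of Clec4d, had 17.9 against 5.82. The inhibitory receptor Fcgr2b was low, at 0.37 against 3.28. The NADPH oxidase, whose subunits make the respiratory burst, held no high gene among its 6, with Cyba at 11.1 against 23.7 and Rac2 at 8.51 against 3.69. The adhesion list held none either, with Cd44 at 9.25 against 4.59 and Selplg at 3.82 against 2.65.

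Cytokine mRNA was abundant. Cxcl2, a chemokine that attracts neutrophils through Cxcr2, had 146, 91.2, 265, 330 and 328 CP10K against 68.8 pooled in the reference and was in 93.5% of cells. Il1b, interleukin-1 beta, had 65, 50.1, 98, 153 and 73.1 against 31.6 and was in 90.3%. Both were higher in all 5 libraries but below the 4-fold mark, so neither was counted as high. Ccl3 and Ccl4, which attract monocytes and T cells, were counted, at 84.6 against 7.05 and 103 against 13.9. Il1rn, the antagonist of the interleukin-1 receptor, was high too, at 24.4 against 4.68. Of the inflammasome genes, Nlrp3, the sensor, had 3.21 against 1.05, while Pycard, the adaptor, was low at 0.247 against 2.92.

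Cytokines varied widely between cells. Cxcl2 ran from 0 to 1573 CP10K per cell with a median of 143, and Ccl4 was at 0 in 35 of 62 cells yet above 100 CP10K in 16. Ccl3 was at 0 in 16 cells, and 16 lay above 100 CP10K. Counting error in cells of about 954 UMIs is part of this spread.

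Among lipid and amine mediators, Hdc had 18.7, 14.4, 13.3, 17.3 and 12.2 CP10K against 0.129 and G0s2 had 37.6 against 0.00678. Alox5ap, which presents arachidonic acid to 5-lipoxygenase, did not stand out, at 11.5 against 12.3. Of the survival genes Bcl2a1a, an anti-apoptotic gene with near-identical copies that may share reads, was high at 4.56 against 0.59, and Mcl1 was at 6.78 against 5.76. Cebpb was the highest transcription factor listed, at 47.9 against 25.1. Cebpd was high at 3.45 against 0.549, but on only 2, 6, 4, 1 and 15 UMIs in the 5 libraries. Spi1, which encodes PU.1, was at 7.65 against 5.13, and Irf8, a factor of monocytes and dendritic cells, had no UMI against 2.23. Cebpe and Gfi1, factors of granule-making precursors, had no UMI. The hypoxia and glycolysis list held no high or low gene among the 5 that were measurable.

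Genes of other roles also ranked among the 20 first. Acod1, the enzyme that makes itaconate, had 37.9, 25.1, 39.4, 34.7 and 24.4 CP10K against 0.522. Hcar2, the receptor of niacin and ketone bodies, had 12.6 against 0.237, Il1f9, interleukin-36 gamma, 5.18 against 0.0136, and Lrg1, a leucine-rich glycoprotein, 4.69 against 0.108. Asprv1, Rdh12, Mrgpra2b, Gm5483, AC110211.1 and H2-Q10 lay between 2.47 and 9.74 CP10K, and some of these belong to gene families whose reads may be shared. Of high genes outside the first 20, which were chosen after their values were seen, Slc7a11, the cystine transporter, had 23.9 against 4.46, Ccrl2 22.2 against 2.94 and Cd24a 13.8 against 1.51.

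Of the 10 first low genes, 5 belonged to MHC class II, a grouping made after their values were seen. Cd74, the invariant chain of MHC class II, had 1.13, 4.56, 4.06, 2.63 and 2.15 CP10K against 138, H2-Aa had 1.11 against 59.3, H2-Ab1 0.74 against 52.6 and H2-Eb1 0.493 against 33.6. H2-DMb1, which loads class II peptides, had no UMI against 5.15. Ms4a6c, Ms4a4c, Ms4a6b, Gpnmb and Cd83 had none against 8.78, 6.03, 4.16, 5.11 and 5.7. Dendritic cells in the reference carry class II genes, and their part in these differences was not tested. MHC class I differed less: B2m had 37.4 against 76.4, H2-D1 25.7 against 29.3 and H2-K1 5.55 against 10.2, while Psmb8, an immunoproteasome subunit, was low at 1.11 against 5.98. Of the 24 genes of the type I interferon list 11 were measurable, 1 was high and 1 was low. Over all measurable genes these shares were 4.93% and 9.79%. Bst2, the virus tether tetherin, was the low one, at 1.11 against 5.59, and Ifitm1 and Ifitm3 had 19.2 against 9.39 and 14.2 against 47.

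**Figure D3:**
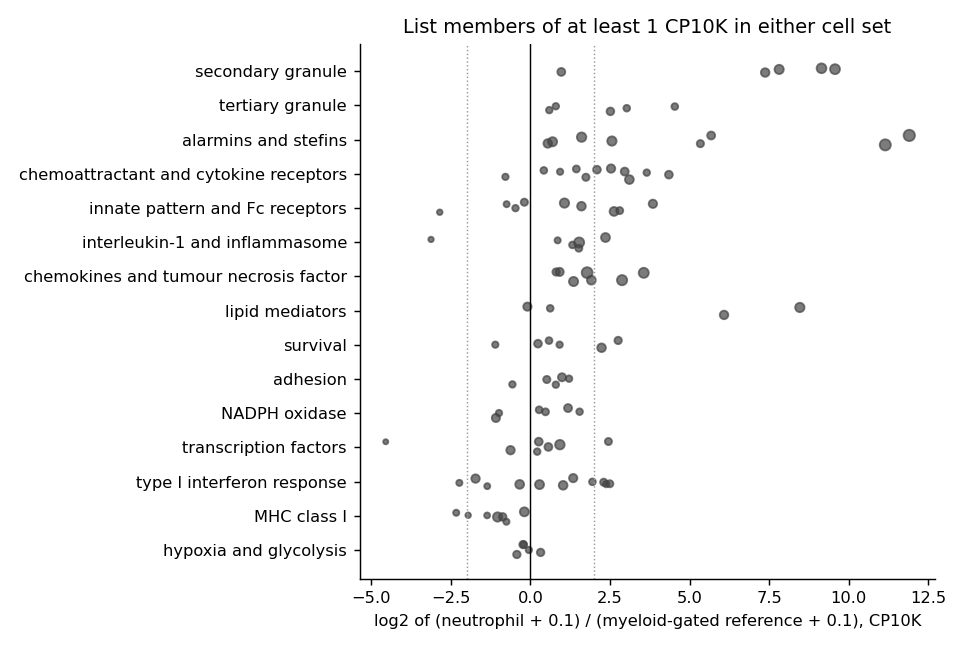
Log2 ratio of pooled neutrophil to reference CP10K, 0.1 added to both, for members of 15 gene lists with at least 1 CP10K in either set, with larger points for higher neutrophil levels and dotted lines at 4-fold. Secondary granule points at the far right, other than Lcn2, rest on 2 cells, and NADPH oxidase, adhesion and hypoxia members lie between the lines.

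Neutrophils differed among themselves by Retnlg, a gene of the gate. Without the cells apart 34 cells had Retnlg and 20 did not, with medians of 901 and 883.5 UMIs. Cells with Retnlg had more Lcn2, at 16.8 against 3.42 CP10K, more Pglyrp1, a peptidoglycan-binding granule protein, at 15.8 against 3.9, more Stfa2l1, at 9.35 against 0.976, and more Wfdc21, at 8.71 against 0.488. Cells without it had more Cxcl2, at 477 against 281, more Ccl3, at 185 against 76.1, more Il1b, at 192 against 93.8, and more Tnf, at 12.2 against 0.645. Icam1, an adhesion ligand, had 6.35 CP10K in them and no UMI in cells with Retnlg. Both kinds occurred in every library, and since these genes were chosen after their values were seen and the gate used Retnlg, no test is given.

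The 34 cells that had both S100 genes but no receptor gene were left out of the gate. They held Hdc at 13.4 CP10K and Il1r2 at 20.2. With Cxcl2 at 512, Ccl3 at 259, Tnf at 19.5 and Lcn2 at 0.909 they lay nearer to the gated cells without Retnlg, whereas with Il1b at 107 they lay nearer to those with it. Ccr2 and Csf1r had no UMI in them.

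**Figure D4:**
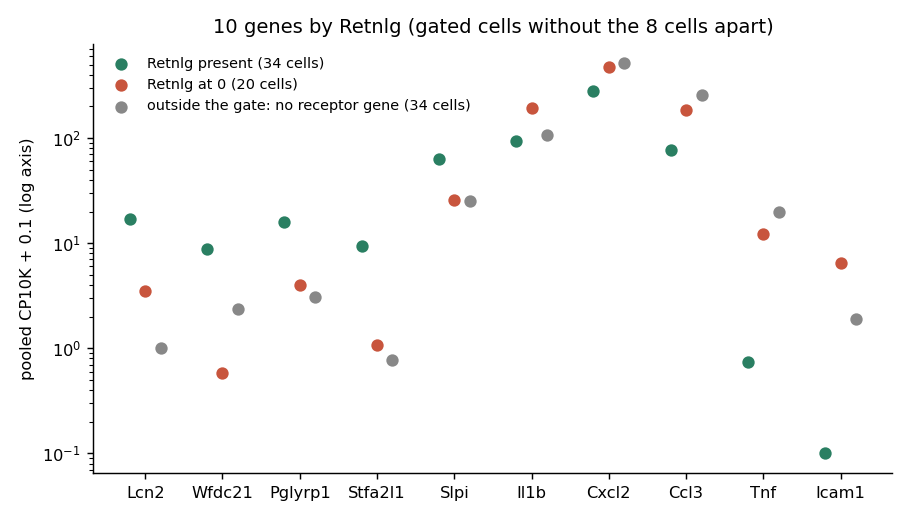
Pooled CP10K with 0.1 added (log axis) of 10 genes in gated cells with Retnlg, in gated cells without it, and in the cells left out for want of a receptor gene. Lcn2, Wfdc21, Pglyrp1, Stfa2l1 and Slpi are highest in cells with Retnlg, and Il1b, Cxcl2, Ccl3, Tnf and Icam1 are lowest in them.

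The study asked how the aorta differs when Oasl1 is lost, and for this the library was the replicate. Nothing in the labels says that the libraries of a group came from separate mice beyond their pools, so p-values measure the spread between these libraries. Neutrophils made up 0.392% (95% Wilson interval 0.242 to 0.636) and 0.254% (0.142 to 0.454) of cells in the Apoe-/- libraries. In those labelled Oasl1-/-Apoe-/- they made up 0.323% (0.181 to 0.578), 0.436% (0.26 to 0.73) and 0.31% (0.168 to 0.569), intervals that cover counting error only. The means of 0.323% ± 0.0981 (SD, n = 2) and 0.356% ± 0.0693 (SD, n = 3) gave an exact two-sided permutation p of 0.7, in a design whose smallest p is 0.1.

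The direction depended on the denominator. Per cell with a UMI of Ptprc, the pan-leukocyte gene, the shares were 4.55% and 3.21% against 1.69%, 2.49% and 1.58%. Per 100 cells of the myeloid-gated reference there were 28.1 and 22.9 neutrophils against 14.5, 18.7 and 13.5. In both the groups did not overlap and neutrophils were lower in the libraries labelled Oasl1-/-Apoe-/-, with an exact permutation p of 0.1 for each, the smallest the design allows. The denominators also differed: cells with Ptprc numbered 352 and 343 against 651, 563 and 633, and reference cells 57 and 48 against 76, 75 and 74. Counts and shares of all cells overlapped. By flow cytometry of atherosclerotic aortas, the paper reported significantly more neutrophils in Oasl1-/-Apoe-/- mice, a measure unlike the shares given here.

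Neutrophils of the groups also differed in depth. Their median UMI count was 763.5 and 799 in Apoe-/- libraries and 1006, 967.5 and 1251 in those labelled Oasl1-/-Apoe-/-, without overlap and with an exact permutation p of 0.1. Over all cells the medians were 4757 and 4495 against 4883, 4951 and 5186.5. In neutrophils mitochondrial UMIs made up a median of 0.437% and 0.383% against 0.692%, 0.503% and 0.685%, without overlap, and in all cells this share lay the other way, at 4.91% and 5% against 4.03%, 3.95% and 3.9%. Smooth muscle markers in the gated cells summed to 135 and 161 CP10K against 2.32, 3.68 and 69.5, and without the mixed cells to 11.6 and 15.1 against 2.32, 3.9 and 0. Their part in the differences below was not tested.

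Gene levels were compared with limma on log2(mean CP10K per cell + 0.5), a scale that understates changes of low genes. Of 1942 genes tested, 2 (0.103%) passed a Benjamini-Hochberg adjusted p of 0.05, and both were higher in the libraries labelled Oasl1-/-Apoe-/-. They were Cxcl2 and Ifi27l2a, and 131 genes had an unadjusted p under 0.05. The median log2 difference over all genes was -0.22.

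Cxcl2 had mean CP10K per cell of 200 and 108 in the Apoe-/- libraries and of 367, 393 and 375 in the libraries labelled Oasl1-/-Apoe-/-. The 3 latter libraries lay close together and above both others. The log2 difference was 1.36 ± 0.25 (SE) with a limma adjusted p of 0.0301. In the reference Cxcl2 overlapped, with 42.3 and 92 against 56.4, 70.4 and 75.1, and a log2 difference of 0.10 (limma adjusted p of 0.873).

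Ifi27l2a, an interferon-induced gene of the mitochondrial membrane, had 4.07 and 12.5 CP10K against 37, 48.8 and 35.2. The log2 difference was 2.39 ± 0.47 (SE), with a limma adjusted p of 0.0423. It rose in the reference too, where the log2 difference was 1.69 with a limma adjusted p of 1.77e-05.

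Both calls rested on all 5 libraries. With any 1 library left out no gene passed the threshold, and limma adjusted p ran from 0.0893 to 0.879 for Cxcl2 and from 0.129 to 0.879 for Ifi27l2a. Without Apoe-/- replicate 2 the log2 difference of Cxcl2 was 0.91 and without Apoe-/- replicate 1 it was 1.80, whereas that of Ifi27l2a was 3.15 and 1.64. No gene passed with 0.1 CP10K added in place of 0.5, or with libraries pooled instead of averaged over cells, although the log2 differences were then 1.36 and 1.41 for Cxcl2 and 2.46 and 2.73 for Ifi27l2a. With a library labelled Oasl1-/-Apoe-/- left out they ran from 1.33 to 1.38 and from 2.25 to 2.48. Without the mixed cells both genes passed, among 10. With no receptor gene asked for, Ifi27l2a passed among 13, and Cxcl2 did not (log2 difference of 1.04, limma adjusted p of 0.0621).

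Of the 24 genes of the type I interferon list 17 were tested, 1 was called and 9 were higher without overlap of the groups, against 6.95% of all genes tested, while 16 of 17 had a log2 difference above 0. The median was 1.25, against -0.22 over all genes. A gene was tested if its mean over the 5 libraries reached 0.5 CP10K. Ifit1, Ifit3, Ifit3b, Oasl1 and Slfn5 had no UMI in the Apoe-/- libraries. They were thus tested only through the libraries labelled Oasl1-/-Apoe-/- and could only be higher there. The counts and the median of this list are therefore descriptions. Isg15, a ubiquitin-like protein, had 3.7 and 5.12 CP10K against 21.6, 20.7 and 22.3, a gap far wider than the spread within the groups, but its limma adjusted p was 0.0904. Rsad2, the antiviral enzyme viperin, had 0 and 1.05 against 9.37, 3.56 and 11.9 (limma adjusted p of 0.132). Ifitm1 and Ifitm2, of a family of membrane proteins whose copies resemble each other, overlapped between the groups, and Ifitm3 did not, at 5.17 and 11 against 23.7, 20.2 and 13.6 (limma adjusted p of 0.652). In the reference 12 of the 16 members tested there passed, all of them higher, where 4.15% of all genes were called higher and 7.36% in either direction. Oasl1 was not tested in the reference but did not overlap there, at 0.11 and 0.102 CP10K per cell against 0.663, 0.331 and 0.639.

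Of the 7 genes of the chemokine list 1 was called, and 4 were higher without overlap, against 6.95% of all genes tested. The other 3 overlapped: Ccl4 had 86.8 and 78.5 against 146, 79.5 and 148, Ccl6 had 55.2 and 11.9 against 57, 25.5 and 40.2, and Tnf had a log2 difference of -0.76. Cxcl3, a relative of Cxcl2, had 11.9 and 3.41 CP10K against 58.6, 34.8 and 16.9 (limma adjusted p of 0.133). Ccl3 had 45.6 and 61.2 against 87.4, 141 and 140 (0.179, limma adjusted). In the reference 3 of the 7 passed, all higher: Ccl3 by 0.86 on the log2 scale (limma adjusted p of 0.0159), Ccl4 by 1.28 (0.0158) and Osm by 0.65 (0.0324). Il1b overlapped, with 92.5 and 64.8 against 126, 168 and 73.7. Osm, oncostatin M, did not overlap, at 6.66 and 9.14 against 9.8, 22.8 and 14.8.

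**Figure D5:**
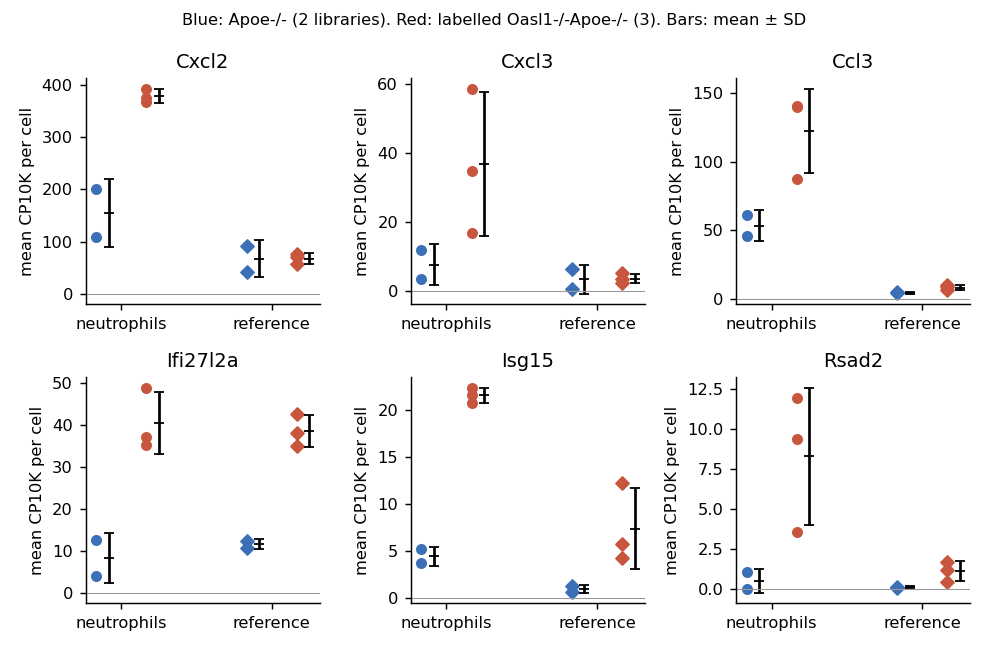
Mean CP10K per cell of 6 genes in each library, in neutrophils (circles) and in the reference (diamonds), with means ± SD beside the points (n = 2 Apoe-/- libraries in blue and n = 3 labelled Oasl1-/-Apoe-/- in red). In neutrophils the groups do not overlap in any of the 6 genes, of which Cxcl2 and Ifi27l2a passed the threshold.

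In the other lists no gene was called. Alarmins and stefins had 3 of 8 tested genes higher without overlap, among them Wfdc17, at 6.77 and 10.4 CP10K against 27.3, 42.2 and 27.5 (limma adjusted p of 0.132), and the interleukin-1 list had 2 of 6, Il1a and Il1rn. Secondary granule genes had a median log2 difference of 2.52 with every member overlapping. The UMIs of Ngp, Camp, Ltf and Chil3 sat in 2 cells of libraries with that label, while Lcn2 had 13 and 14 UMIs in the Apoe-/- libraries against 204, 27 and 10. The NADPH oxidase, adhesion and survival lists had no member without overlap, and the rest had at most 1 in each direction, where 6.95% of all genes did not overlap higher and 15% lower. Mgst1, a glutathione transferase outside the lists that was chosen after its values were seen, had no UMI in the Apoe-/- libraries against 9, 15 and 9 (limma adjusted p of 0.0902).

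Whether the genotype difference itself differed between neutrophils and the reference was tested as an interaction on the differences within libraries. None of 1456 genes passed (0%, smallest limma adjusted p of 0.2), and 82 had an unadjusted p under 0.05. The smallest was that of Mgst1, with an interaction of 3.91 ± 0.78 (SE) on the log2 scale. Mgst1 had no UMI in the neutrophils of the Apoe-/- libraries, so it was tested only through the libraries labelled Oasl1-/-Apoe-/-. The size of its interaction therefore depends on the 0.5 CP10K added. For Cxcl2 the interaction was 1.26 ± 0.63 (SE) on the log2 scale, with a limma adjusted p of 0.807. The difference called in neutrophils was thus not shown to differ from that in the reference. With another model of the variance, tried after this result was known, Cxcl2 and Mgst1 were among 7 genes that passed. Haemoglobin genes made up 4 of the 7, and red cell markers summed to 1497 CP10K in the neutrophils of Oasl1-/-Apoe-/- replicate 2, nearly all from 1 mixed cell, and to 171 CP10K in the reference of Apoe-/- replicate 2.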

How the data were processed

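The authors mapped droplet 3′ reads to mm10 with Cell Ranger 3.1.0 and filtered and normalised cells with Seurat 4.0.3, removing doublets with DoubletFinder. The authors deposited 16498 genes on a natural log scale, ln(1 + CP10K). Reversing the log gave whole UMIs for 100% of values, within a tolerance of 0.01. Few genes had a UMI in only 1 or 2 cells of a library, so a rare transcript may be listed at 0.

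The members, gene lists and comparisons were chosen with earlier results of these data known. Named genes were those of the gate, the 20 first of the high and the 10 first of the low genes, up to 6 members a list by level, called list members, and Oasl1 and Oasl2. Others are stated to be chosen after their values were seen, as were the definitions of mixed cells (10 UMIs) and granule-rich cells (2% of UMIs).

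Genotype contrasts used limma 3.58.1 (lmFit, then eBayes with trend) in R 4.3.3 on genes of at least 0.5 CP10K, and shares and depths an exact permutation test in scipy 1.17.1. Simulated counts were drawn for whole libraries, without the spread between cells. On simulated contrasts of 1664 genes, limma recovered 19 of 100 genes changed 4-fold and 67 of 100 changed 16-fold, with 2 unchanged genes called. On a simulated interaction of 1581 genes it recovered 17 and 66, with 12 unchanged genes called. There both cell sets were drawn from the pooled neutrophil levels, so these numbers may not hold for the real reference, whose levels differ. A variance trend on the neutrophil level was tried after these 12 calls, and after the fit as designed had called no gene in the real data. It recovered 17 and 59 with 6 unchanged genes called, and it is reported as an alternative only. Symbols were matched to GENCODE vM21 for 16324 genes. No column was left without a sample.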

Additional observations from a re-analysis of the deposited data

How the results depend on the processing

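The contrast called 2 genes in the main setting. It called 0 with 0.1 CP10K added, 0 on pooled CP10K, 9 with no filter beyond 1 UMI, 29 with limma-voom on summed UMIs, 5 with a gate threshold of 3, and 33 with a replicate block. Among alternatives added after the data were seen it called 10 without mixed cells, 7 without mixed and granule-rich cells, 13 with no receptor gene asked for and 11 scaled to abundant genes. Leaving out 1 library gave from 0 to 0 calls. Of the 29 calls with voom 23 were lower, and of the 33 with the block 16. Replicate numbers were not taken to pair the libraries, and whether they do was not settled. Same-numbered libraries correlated at 0.067 and -0.0363 in their deviations from group means. With 2 Apoe-/- libraries these deviations mirror each other, so the correlations cannot show whether libraries pair.

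The interaction called 0 genes in the main setting and in the replicate block, 1 (Mgst1) with a filter of 2 CP10K, 1 (Mgst1) with the reference by the rule alone and 7 with the variance trend on the neutrophil level. That last fit was chosen after seeing that the designed fit called 0 and the self-test called unchanged genes. Mgst1 had no UMI in Apoe-/- neutrophils and passed each filter only through the other libraries. Leaving out 1 library gave from 0 to 0.

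The difference in share of all cells was 0.0333 percentage points. It turned to -0.0299 with at least 2 receptor genes, -1.96 per cell with Ptprc, -0.748 per cell with Tyrobp and -9.94 in 100 reference cells, and ran from -0.0361 to 0.103 with 1 library left out. Low genes numbered 153, and 75 with 0.5 CP10K added, 238 at 3-fold, 304 without mixed cells and 318 without mixed and granule-rich cells. High genes stayed within 1.5 times of 77, and depth kept its direction, under every alternative run. Of 384 recomputed folds of 32 named genes 349 stayed within 1 SD of the libraries, 35 moved further and none reversed. Most of these genes were chosen for their large folds, and some belong to the gate. A reversal was hardly possible for them, so its absence is a description. The simulated contrast recovered 19 of 100 genes changed 4-fold, and 11 of the 15 among them over 5 CP10K. Counts were simulated for whole libraries, so the spread between the 10 to 16 cells of a real library was left out. Many changes of that size, mostly of low genes in the simulation, may be missed at this depth.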

Other observations

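Ribosomal protein genes were looked at after their values were seen. Of 73 tested Rpl and Rps genes in neutrophils, none was called, 29 were lower in the libraries labelled Oasl1-/-Apoe-/- without overlap of the groups and 2 were higher, where 15% and 6.95% of all genes tested were. Their median log2 difference was -0.82 against -0.22 over all genes. In the reference 26 of the 73 passed the threshold, all of them lower, with a median of -0.30, where 7.36% of all genes were called in either direction. In the same neutrophils the summed smooth muscle markers were 135 and 161 CP10K against 2.32, 3.68 and 69.5, and the part of these markers in the ribosomal difference was not tested.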
